A study of Mus musculus with 13 samples.

Results

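Chromatin regulators set which genes a cell can read. Dnmt and Tet enzymes add and oxidise methyl groups on DNA, polycomb complexes hold genes silent, histone methyltransferases, demethylases, acetyltransferases and deacetylases write and erase marks on histones, and remodelling ATPases move nucleosomes. In regulatory T cells, Uhrf1 with Dnmt1 copies DNA methylation at cell division, Tet enzymes keep the Foxp3 enhancer demethylated, and Ezh2 takes part in gene repression after activation. The 35 genes described here are a list of named regulators in 5 classes: 7 of DNA methylation, 7 of polycomb, 11 of histone methylation, 7 of acetylation and 3 of remodelling. All 35 were present among the 24338 gene names of the RNA-seq table, and all 35 passed the filter on low counts.

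RNA-seq was made from regulatory T cells of male C57BL/6 mice of 21 days. WT mice carried Foxp3Cre-YFP, and CAT mice carried Foxp3Cre-YFP with Ctnnb1flex3, an allele from which Cre removes exon 3 of Ctnnb1 so that β-catenin is stabilised. Both genotypes thus carry the Cre-YFP transgene, which is driven by Foxp3 and acts in Foxp3-expressing cells, and the cells were sorted as YFP+ CD25+ cells from pre-purified CD4+ cells of lymph nodes. There were 3 WT and 3 CAT RNA libraries, and 3 WT and 2 CAT ATAC-seq libraries, the latter also from mice of 21 days. A further 1 TCF1 ChIP-seq library came from lymph node and spleen cells of WT mice of 10 to 12 weeks, with its input. The labels do not say whether libraries of 1 genotype came from separate mice, and every p-value therefore rests on library-to-library spread that could be technical.

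Each RNA library held 24124086 to 31527245 counted fragments. WT replicates 1 and 3 stood apart, with fragments on 19682 and 19776 genes against 15764 to 16079 in the other 4 libraries, so calls are also given with WT replicate 2 standing alone for WT. Ctnnb1 itself lay at 452.6, 488.5 and 491.6 CPM in WT and 429.0, 415.3 and 492.4 CPM in CAT, and a gene-level count does not show whether exon 3 was removed. CPM is the count scaled to library size, after TMM scaling between libraries. Over all 13193 genes tested by edgeR, 25.5% were higher in CAT and 23.5% lower. Of the 6 regulatory T cell markers 4 were higher in CAT, and Foxp3 lay at 86.8 to 117.9 CPM in WT and 153.1 to 166.3 CPM in CAT. The summed level of 8 B cell markers was 19.0 to 22.7 CPM in WT and 6.92 to 11.3 in CAT, and that of the myeloid list was 13.2 to 17.9 and 9.34 to 12.9. Only 3 of the 8 B cell markers were tested, and 1 passed, as lower. Among the 10 myeloid markers 5 were tested and all 5 passed, 2 as higher and 3 as lower. The erythroid list summed to 1.12 to 1.62 and 2.31 to 2.63 CPM, and the stromal and endothelial list to 166.0 to 173.9 and 49.7 to 66.4, nearly all of it Pecam1. Only 1 of the 5 erythroid markers was tested, and it did not pass. Only 2 of the 8 stromal and endothelial markers were tested, and 1 passed, as lower. Of the 10 CD8 T and NK cell markers 8 were tested and 7 were higher, beside the 25.5% of all genes. Their sum rose from 31.2 to 36.8 CPM in WT to 3790.1, 3130.1 and 1223.8 CPM in CAT replicates 1, 2 and 3, nearly all of it Gzma. The defining gene Cd8a was also higher but low in both genotypes, at 0.127 to 0.541 CPM in WT and 0.745 to 1.19 CPM in CAT. The part of these markers in the changes of the members was not tested. In bulk samples, fewer cells of a type and less RNA per cell cannot be told apart.

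The promoters of the 3 members that rose most and the 3 that fell most are shown, to set their letters beside the ATAC and TCF1 peaks described further on. They are RefSeq windows of GRCm38.p6 from 250 bases before to 50 after a start site, written 5′ to 3′ on the gene's strand. Capitals mark the E2F-type motif TTTNNCGC on either strand in all of them, and 2 matches overlap in the Dnmt1 window. E2F factors drive genes of DNA replication. Uhrf1, Dnmt1, Hdac9 and Arid1a have several windows, and those printed were picked with their motifs and peaks known. Among the risers, the Uhrf1 window is chr17:56304063-56304362 on the plus strand, that of Ezh2 is chr6:47594981-47595280 and that of Dnmt1 is chr9:20952574-20952873, both on the minus strand. All 3 overlapped an ATAC peak in all 5 libraries, and 70 bases of the Dnmt1 window lay under a TCF1 peak.
Uhrf1: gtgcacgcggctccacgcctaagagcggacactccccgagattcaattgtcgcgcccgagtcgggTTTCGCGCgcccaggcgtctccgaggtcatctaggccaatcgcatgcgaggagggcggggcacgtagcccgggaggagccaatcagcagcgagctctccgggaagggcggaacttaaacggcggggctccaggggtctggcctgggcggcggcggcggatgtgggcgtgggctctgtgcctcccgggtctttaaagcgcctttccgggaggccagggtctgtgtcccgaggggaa
Ezh2: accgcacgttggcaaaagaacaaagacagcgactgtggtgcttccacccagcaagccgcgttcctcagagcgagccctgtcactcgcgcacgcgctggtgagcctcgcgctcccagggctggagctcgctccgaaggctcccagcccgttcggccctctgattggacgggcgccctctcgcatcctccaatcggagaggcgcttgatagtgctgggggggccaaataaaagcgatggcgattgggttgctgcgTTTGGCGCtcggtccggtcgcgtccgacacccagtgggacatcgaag
Dnmt1: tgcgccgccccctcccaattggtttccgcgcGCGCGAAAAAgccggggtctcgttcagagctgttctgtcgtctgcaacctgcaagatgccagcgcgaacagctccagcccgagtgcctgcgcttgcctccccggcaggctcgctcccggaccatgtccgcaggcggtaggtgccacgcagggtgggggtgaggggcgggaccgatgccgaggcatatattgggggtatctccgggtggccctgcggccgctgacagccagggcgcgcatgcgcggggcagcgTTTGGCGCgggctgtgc

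Among the fallers, both Arid1a windows are printed, chr4:133753936-133754235 and chr4:133756720-133757019, with that of Tet1, chr10:62887275-62887574, and that of Hdac9 at the 5′ end of the gene, chr12:34917046-34917345, all on the minus strand. Both Arid1a windows overlapped an ATAC peak in all 5 libraries, and the second held the whole of a TCF1 peak. The Tet1 and Hdac9 windows overlapped no ATAC peak and no TCF1 peak and held no match to the motif. The Hdac9 window had 0 CpG dinucleotides and the Tet1 window 17, against a median of 30 over the members' promoters.
Arid1a, first window: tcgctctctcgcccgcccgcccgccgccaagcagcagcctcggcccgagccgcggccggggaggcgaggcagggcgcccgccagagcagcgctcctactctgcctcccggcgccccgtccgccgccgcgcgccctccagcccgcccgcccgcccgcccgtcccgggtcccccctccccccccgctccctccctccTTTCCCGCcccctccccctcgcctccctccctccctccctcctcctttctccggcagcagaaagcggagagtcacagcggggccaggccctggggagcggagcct
Arid1a, second window: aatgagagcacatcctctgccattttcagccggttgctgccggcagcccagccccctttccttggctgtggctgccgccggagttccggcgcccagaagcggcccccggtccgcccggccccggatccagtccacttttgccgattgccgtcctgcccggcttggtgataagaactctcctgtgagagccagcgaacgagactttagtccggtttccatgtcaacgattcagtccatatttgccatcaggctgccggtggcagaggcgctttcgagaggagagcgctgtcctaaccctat
Tet1: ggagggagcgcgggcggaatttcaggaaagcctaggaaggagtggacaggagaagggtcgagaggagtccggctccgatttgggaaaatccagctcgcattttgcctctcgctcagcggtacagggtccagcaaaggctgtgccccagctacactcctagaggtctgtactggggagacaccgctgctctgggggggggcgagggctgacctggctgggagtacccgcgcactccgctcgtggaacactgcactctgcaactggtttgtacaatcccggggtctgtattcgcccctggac
Hdac9: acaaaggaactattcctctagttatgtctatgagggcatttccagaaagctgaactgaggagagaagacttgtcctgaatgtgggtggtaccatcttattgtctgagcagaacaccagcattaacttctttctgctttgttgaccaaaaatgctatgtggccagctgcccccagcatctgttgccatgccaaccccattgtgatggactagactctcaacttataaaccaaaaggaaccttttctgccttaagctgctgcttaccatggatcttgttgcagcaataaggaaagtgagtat

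Between genotypes, 15 of the 35 members passed the test (edgeR quasi-likelihood test, Benjamini-Hochberg adjusted p under 0.05 over 13193 genes), 7 higher and 8 lower in CAT. That is 42.9% of members, and over all genes tested 49.0% passed, 25.5% higher and 23.5% lower. CPM of the genotypes did not overlap for 17 members, or 48.6%, against 59.2% of all genes. The median log2 change was -0.04 in members and 0.00 in all genes, and the median size of the change 0.21 and 0.36. Changes of at least 2-fold were called in 2 members, Uhrf1 and Hdac9, against 17.3% of all genes, and 26 of 35 changed by less than 0.5 on the log2 scale. With WT replicate 2 standing alone for WT, whose spread is then taken from the CAT libraries, 2 members were higher, Uhrf1 and Ezh2, and 5 lower, Tet1, Rnf2, Hdac2, Hdac9 and Arid1a, and 26.1% of the 13719 genes of that fit passed in either direction.

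**Figure D1:**
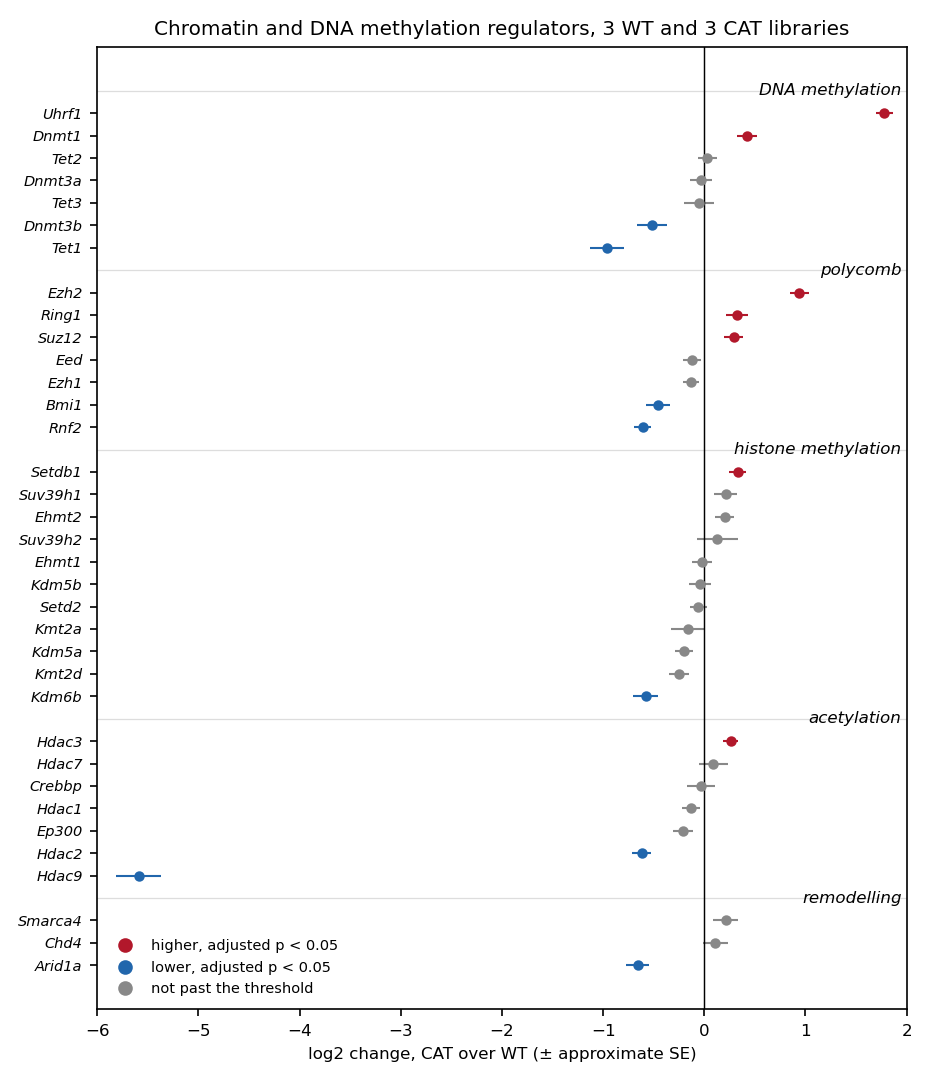
Log2 change of each member in CAT over WT, by class (points, edgeR; bars, approximate SE; 3 libraries per genotype; red higher, blue lower, grey not past an adjusted p of 0.05). Uhrf1 at 1.78 and Hdac9 at -5.59 stand at the ends, and 20 members did not pass.

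FPKM of replicate 1 followed another scale by gene in both genotypes, for example at 1.498 and 1.342 times the value per fragment of WT replicate 2 for Ring1, and 0.783 and 0.821 times for Rnf2. Levels per transcript length, as the authors' FPKM averaged over replicates 2 and 3, put Chd4 highest in both genotypes, at 87.1 in WT and 85.0 in CAT, and Rnf2 next, at 65.3 and 44.6. Chd4 is the ATPase of the NuRD remodelling complex. In WT, Hdac2 at 54.2, Kdm5a at 43.6 and Dnmt1 at 35.8 FPKM came after them. In CAT the order was Dnmt1 at 44.3, Kdm5a at 39.4, Ezh2 at 38.8 and Hdac2 at 38.1, levels that lie close together and were not tested against each other. The lowest 4 in both genotypes were Hdac9, Tet1, Kdm6b and Suv39h2. They lay at 2.71, 2.19, 2.06 and 1.26 FPKM in WT and at 0.0611, 1.22, 1.47 and 1.57 FPKM in CAT.

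**Figure D2:**
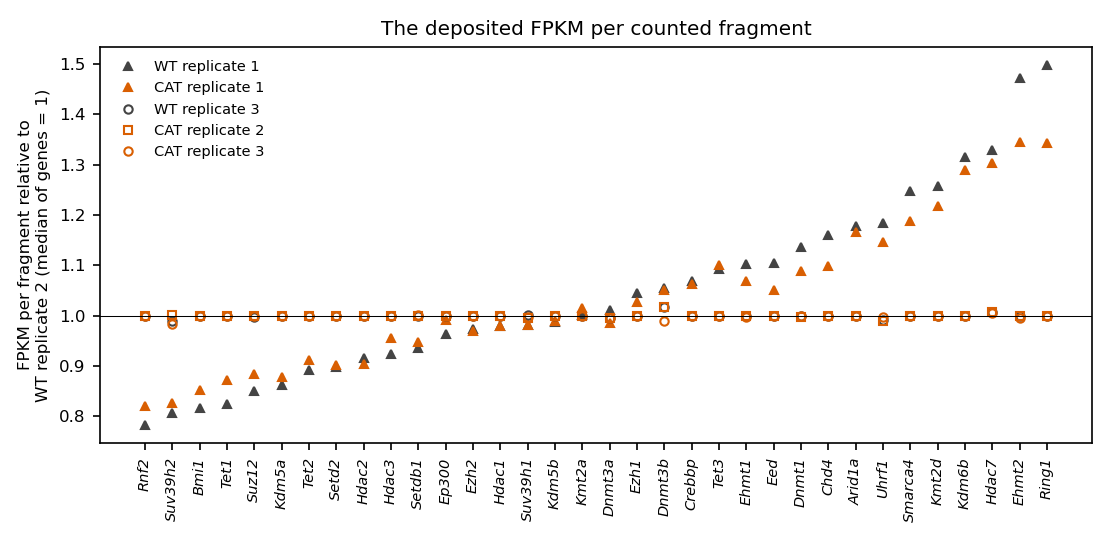
FPKM per counted fragment of each member relative to WT replicate 2, with the median of all genes set to 1 (filled triangles, replicate 1; open symbols, replicates 2 and 3; grey WT, orange CAT). Replicate 1 runs from 0.783 in Rnf2 to 1.498 in Ring1 in WT, and the open symbols lie near 1; Hdac9 had too few fragments.

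Among the DNA methylation genes, Uhrf1 and Dnmt1 rose and Tet1 and Dnmt3b fell. Uhrf1, which reads hemimethylated DNA and brings Dnmt1 to it, lay at 22.2, 23.6 and 25.6 CPM in WT and 83.0, 82.8 and 79.4 CPM in CAT. Every CAT library was above every WT library, a rise of 1.78 on the log2 scale (SE 0.086, adjusted p = 8.99e-07, edgeR). Dnmt1, the maintenance methyltransferase, lay at 162.1, 191.0 and 191.8 CPM in WT and 254.1, 218.9 and 256.3 in CAT. Its groups did not overlap, its log2 change was 0.42 (SE 0.099, edgeR adjusted p = 0.00645), and the call was lost in 4 of 18 other settings, among them WT replicate 2 standing alone for WT (adjusted p = 0.119) and edgeR on replicates 2 and 3 (adjusted p = 0.0609). All 26 genes of a cell cycle list, such as Birc5 and Ccnb1, also passed the test as higher in CAT, as did 25.5% of all genes tested. The cell cycle genes had a median log2 change of 1.68 and a summed level of 988.8 to 1068.2 CPM in WT and 2336.5 to 2945.2 in CAT. Their part in the rises of Uhrf1, Dnmt1 and Ezh2 was not tested.

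Tet1, which oxidises 5-methylcytosine, lay at 29.2, 31.9 and 32.1 CPM in WT and 12.0, 15.3 and 20.6 in CAT. The groups did not overlap, the CAT libraries were spread more widely than the WT ones, and the log2 change was -0.96 (SE 0.17, edgeR adjusted p = 0.00157). The Tet1 call was lost in 1 of 18 other settings, limma on log2(FPKM + 1) without a filter (adjusted p = 0.0621). Tet2 and Tet3, the other two members of the family, did not pass, with log2 changes of 0.03 and -0.05. Dnmt3b, a de novo methyltransferase, lay at 9.58, 12.3 and 11.8 CPM in WT and 8.57, 7.29 and 7.67 in CAT. The groups did not overlap and the log2 change was -0.52 (edgeR adjusted p = 0.015). Its call was lost in 5 of 18 other settings, among them those without WT replicate 2, WT replicate 3 or CAT replicate 2. Dnmt3a, its paralogue, lay at 121.7 to 159.1 CPM in WT and 128.0 to 152.5 in CAT, and the groups overlapped.

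**Figure D3:**
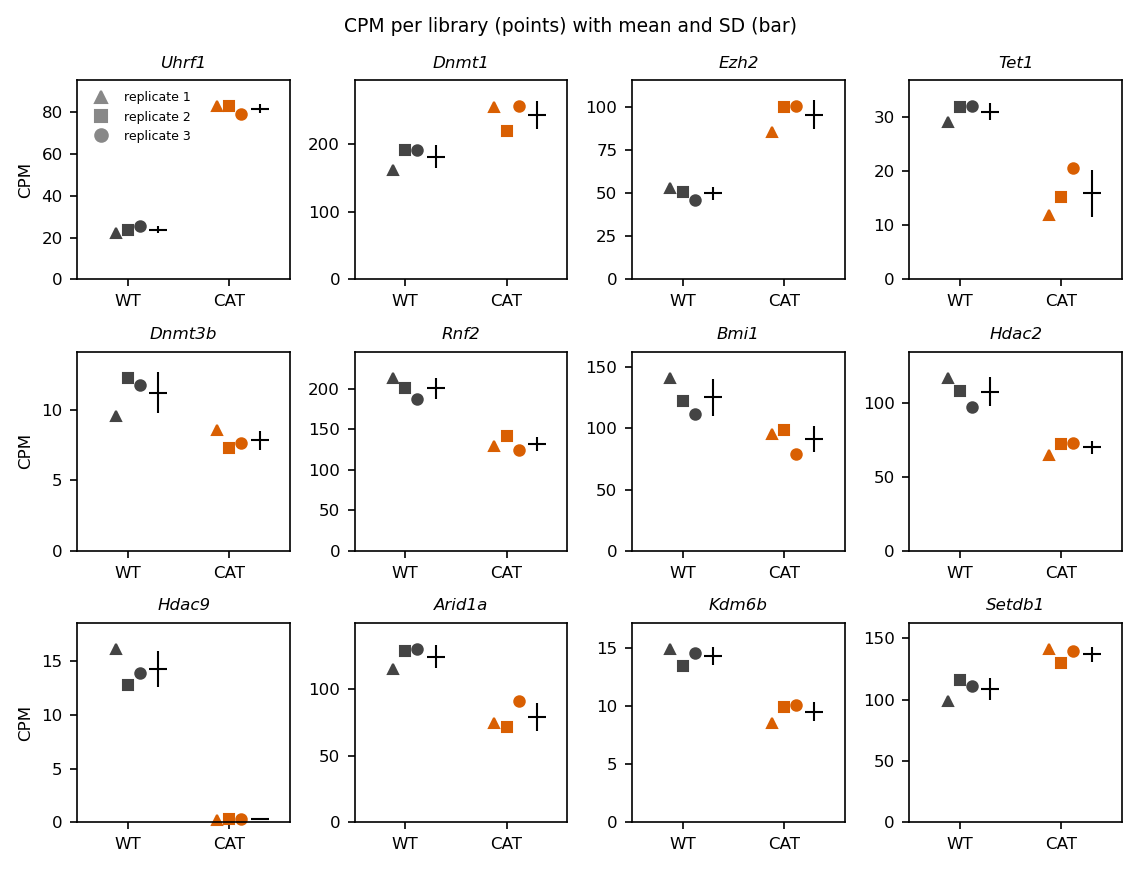
CPM in each library for 12 members (triangle, square and circle for replicates 1, 2 and 3; bar, mean and SD, n = 3; axes start at 0). In each panel the CAT libraries lie wholly above or wholly below the WT libraries, as for Uhrf1 (22.2 to 25.6 against 79.4 to 83.0 CPM). The 12 were picked from the 15 called members, so this lack of overlap follows from the choice. Among all 35 members 48.6% did not overlap, against 59.2% of all genes tested.

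Polycomb members moved in both directions. Ezh2, the main methyltransferase of polycomb complex PRC2, lay at 53.1, 50.6 and 45.7 CPM in WT and 85.6, 100.1 and 100.4 in CAT. The groups were far apart, and the log2 change was 0.94 (SE 0.096, edgeR adjusted p = 5.66e-05). Suz12, a PRC2 core subunit, changed by 0.29 (edgeR adjusted p = 0.026), from 123.8 to 143.7 CPM in WT to 147.2 to 173.3 in CAT. Ezh1, the other PRC2 methyltransferase, and Eed, a further PRC2 subunit, did not pass, with log2 changes of -0.13 and -0.12.

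In PRC1, Rnf2, the main ubiquitin ligase of the complex, lay at 213.9, 200.7 and 187.8 CPM in WT and 128.9, 141.6 and 124.3 in CAT. It was lower in every CAT library, with a log2 change of -0.61 (SE 0.086, edgeR adjusted p = 0.000396). Bmi1, its partner subunit, fell by 0.46 (edgeR adjusted p = 0.00905), from 111.8 to 141.4 CPM in WT to 78.8 to 98.8 in CAT. The Bmi1 call was lost in 2 of 18 other settings, among them limma on log2(FPKM + 1) of replicates 2 and 3 (adjusted p = 0.0757). Ring1, the paralogue of Rnf2, lay at 19.8 to 23.4 CPM in WT and 25.2 to 29.5 in CAT, a log2 change of 0.32 (edgeR adjusted p = 0.0331). The calls of Suz12 and Ring1 were the least stable, lost in 10 and 12 of 18 other settings: that of Suz12 without WT replicate 2, WT replicate 3, CAT replicate 1 or CAT replicate 2, and that of Ring1 without WT replicate 1, WT replicate 2, CAT replicate 2 or CAT replicate 3.

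Of the 11 histone methylation genes 2 were called, 1 in each direction, beside 49.0% of all genes tested, and the classes were not tested against each other. Setdb1, a repressive methyltransferase, lay at 98.8, 115.8 and 111.0 CPM in WT and 141.1, 130.0 and 139.7 in CAT. The groups did not overlap and the log2 change was 0.33 (SE 0.086, edgeR adjusted p = 0.0101), with the call lost in 7 of 18 other settings. Kdm6b, a demethylase that removes the PRC2 mark, lay at 14.9, 13.4 and 14.6 CPM in WT and 8.57, 9.92 and 10.1 in CAT. It was lower in every CAT library, with a log2 change of -0.58 (SE 0.12, edgeR adjusted p = 0.00376). Its call was lost in 5 of 18 other settings, 4 of them limma on FPKM, where adjusted p was 0.0522 to 0.122, and the other with WT replicate 2 standing alone for WT (edgeR adjusted p = 0.112).

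The other 9 members of this class did not pass, with log2 changes from -0.25 in Kmt2d to 0.21 in Suv39h1. They are the activating methyltransferases Kmt2a and Kmt2d, Setd2, which acts on transcribed genes, the repressive Suv39h1, Suv39h2, Ehmt1 and Ehmt2, and the demethylases Kdm5a and Kdm5b. Kmt2a lay at 211.5 CPM in WT replicate 1 and at 335.6 and 332.0 in the other two WT libraries. Without WT replicate 1, Kmt2a and Kmt2d passed as lower, as did Ep300 of the next class. Kdm5a and Suv39h1 passed without WT replicate 3, the first as lower and the second as higher, and Ehmt2 as higher and Kmt2d as lower without CAT replicate 3. Kmt2d and Kdm5a also passed as lower with upper quartile factors (edgeR adjusted p = 0.0361 and 0.0438). So did Kmt2d with the replicate number as a block (edgeR adjusted p = 0.0477) and Kmt2a with edgeR on replicates 2 and 3 (adjusted p = 0.0362).

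Among acetylation genes, Hdac9 showed the largest change of all members. This class IIa deacetylase lay at 16.1, 12.8 and 13.9 CPM in WT and 0.224, 0.297 and 0.357 in CAT. The 3 WT libraries together held 1200 fragments and the 3 CAT libraries 23, a ratio of WT to CAT, after division by all fragments, with a 95% exact binomial interval of 33.2 to 79.2 that covers counting error only. The fitted log2 change was -5.59 (SE 0.22, edgeR adjusted p = 2.86e-07). Hdac7, another class IIa deacetylase, did not pass, at 51.4 to 76.0 CPM in WT and 59.0 to 72.9 in CAT.

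Hdac2, a class I deacetylase, lay at 117.0, 108.0 and 97.2 CPM in WT and 64.8, 72.2 and 72.6 in CAT. Every CAT library was below every WT library, with a log2 change of -0.62 (SE 0.093, edgeR adjusted p = 0.000558). Its close paralogue Hdac1 did not pass, with a log2 change of -0.13. Hdac3, the deacetylase of the NCoR complexes, lay at 57.0 to 58.5 CPM in WT and 68.9 to 69.4 in CAT, with a log2 change of 0.26 (edgeR adjusted p = 0.0134). That call was lost in 5 of 18 other settings. Among them were edgeR without WT replicate 2 (adjusted p = 0.0535) and edgeR on replicates 2 and 3 (adjusted p = 0.0731). The acetyltransferases Ep300 and Crebbp did not pass, with log2 changes of -0.21 and -0.03.

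Of the remodelling genes, Arid1a, a DNA-binding subunit of BAF complexes, lay at 114.7, 128.2 and 129.9 CPM in WT and 74.2, 71.2 and 90.7 in CAT. It was lower in every CAT library, with a log2 change of -0.66 (SE 0.11, edgeR adjusted p = 0.000863). Smarca4, a BAF ATPase, and Chd4 did not pass, with log2 changes of 0.21 and 0.11. Arid1a, Ezh2, Hdac2, Hdac9, Rnf2 and Uhrf1 kept their calls under every other setting that gave a value.

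Ratios of fragments between related genes, taken within each library and so free of scaling between libraries, were compared for 12 pairs. With 3 libraries against 3, the exact two-sided permutation test cannot go below p = 0.1, and 7 pairs without overlap reached it (0.171 after Benjamini-Hochberg adjustment over 12 pairs). Each of these 7 held a member already called from the same counts, so the ratios are not separate evidence. How often pairs of other genes do not overlap was not tested. Ezh2 over Ezh1 was 0.372 ± 0.0297 in WT and 0.782 ± 0.0691 in CAT (SD, n = 3; exact p = 0.1). Uhrf1 over Dnmt1 went from 0.131 to 0.338, and Tet1 over Tet2 from 0.315 to 0.156. Rnf2 over Ring1 went from 9.28 to 4.87 and Hdac2 over Hdac1 from 2.05 to 1.46. Dnmt3b over Dnmt3a went from 0.0788 to 0.0564 and Hdac9 over Hdac7 from 0.238 to 0.00437. In the other 5 pairs the genotypes overlapped, as for Ep300 over Crebbp at 0.946 and 0.826.

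**Figure D4:**
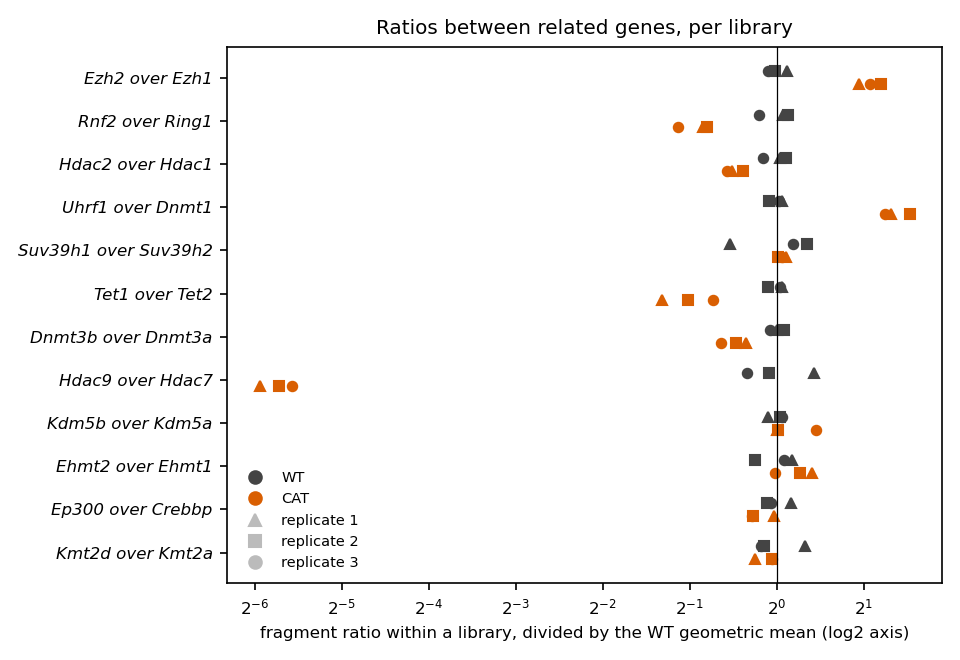
Fragment ratio of 12 gene pairs in each library, divided by the geometric mean of the 3 WT libraries (log2 axis; grey WT, orange CAT; symbols are replicates). The CAT libraries lie apart from WT for 7 pairs, each holding a member called from the same counts. On average Ezh2 over Ezh1 is 2.10 times as high and Hdac9 over Hdac7 53.4 times as low.

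The authors' deposited table of their own test put 13 of the 35 members past a q-value of 0.05, 5 higher and 8 lower, where 45.8% of the 13060 rows with a completed test in the authors' deposited table were past it. All 13 were among the 15 called by edgeR, with the same direction. Ring1 and Setdb1 were called by edgeR alone.

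Other genes of the same pathways, on lists of 160 genes of which 157 were tested, passed as higher for 27 and lower for 42, or 43.9% in all, near the 49.0% of all genes. In DNA methylation and methyl donor supply, 6 rose and 3 fell of 23, or 39.1%. They were led by Gadd45g at 2.30, Ahcy, which clears S-adenosylhomocysteine, at 1.48, and Gadd45b at 1.37 on the log2 scale. Idh1 fell by 0.88 and Mat2a, which makes S-adenosylmethionine, fell by 0.53. Of the 29 other polycomb genes 7 rose and 11 fell, or 62.1%. The PRC2 accessory genes Phf19 and Jarid2 rose by 1.00 and 0.74 and the PRC1 gene Phc1 by 0.85, while Scmh1 fell by 1.56, Cbx7, a PRC1 reader, by 1.05 and Phf1 by 0.83.

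Of 41 other histone methylation genes 4 rose and 11 fell, or 36.6%, beside 49.0% of all genes tested. Nsd2, which the file lists as Whsc1, rose by 1.02, Kdm4d by 0.84 and Cbx5, which encodes HP1 alpha, by 0.51, although the authors' estimate for Cbx5 was marked failed in 4 of the 6 libraries. Setd7 fell by 0.66, Kdm7a by 0.63 and Setd1b by 0.62. Of 29 other acetylation genes 4 rose and 9 fell, or 44.8%, with Sirt2 at 0.74, Sirt6 at 0.58 and Ing2 at 0.43 among the rises. Hdac11 fell by 1.70, Hdac10 by 0.72 and Kat6b by 0.62. Of 35 other remodelling genes 6 rose and 8 fell: the ATPase gene Chd7 lay at 103.4 to 126.3 CPM in WT and 331.2 to 354.0 in CAT, and Chd9 at 194.6 to 213.4 and 60.4 to 73.0. Their log2 changes were 1.57 and -1.59, so these paralogues moved in opposite directions. Smarcd3 rose by 0.77 and Mta3 by 0.39, and Chd6 and Chd1 fell by 0.57 and 0.48.

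Open chromatin was read from the authors' ATAC peak lists, whose sizes differed between genotypes, with 33204 to 41197 peaks in WT and 27129 and 29548 in CAT. A peak absent from CAT therefore cannot be told apart from a shorter CAT list at 1 region. Peaks in the CAT lists were also narrower, at a median of 254 bp in both against 384 to 399 bp in WT. Their median pileup was lower too, at 8.95 and 8.34 against 12.8 to 13.8 in WT. The part of these differences in the WT-only regions was not tested. RefSeq start sites were at hand for 31 members, and 26 had a peak within 1 kb of one in all 5 libraries, which is 83.9% against 79.7% of all tested genes. The exceptions were Tet1, Hdac9, Kmt2d, Ehmt2 and Kdm5b. Tet1 had a start site peak in all 3 WT libraries and in neither CAT library, and Hdac9 had none in any library.

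Peaks of the 5 libraries were joined into 49014 regions, of which 40.4% were in all 5, 12.4% in all WT and no CAT library, and 3.94% in both CAT and no WT library. Within 5 kb of the members lay 124 regions: 59 in all 5 libraries, 17 of the WT-only kind, or 13.7%, and 2 of the CAT-only kind. The 17 fell at 11 members, against 20.4% of tested genes with any, but members had a median span of 42.4 kb and tested genes 21.7 kb. Tet1 had 1 such region, chr10:62886200-62887259, centred 0.595 kb into the gene. Hdac9, which spans 869516 bases, had 4, at chr12:34906632-34907746, chr12:34802042-34802781, chr12:34495926-34496452 and chr12:34432586-34433486, and it held both CAT-only regions, at 1 member against 6.38% of tested genes. Ezh2, whose RNA rose, had 2 WT-only regions inside the gene, at chr6:47532568-47532881 and chr6:47560913-47561725. Bmi1 and Kmt2a also had 2 each, and Dnmt3a, Tet2, Tet3, Kdm6b, Hdac1 and Arid1a 1 each.

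**Figure D5:**
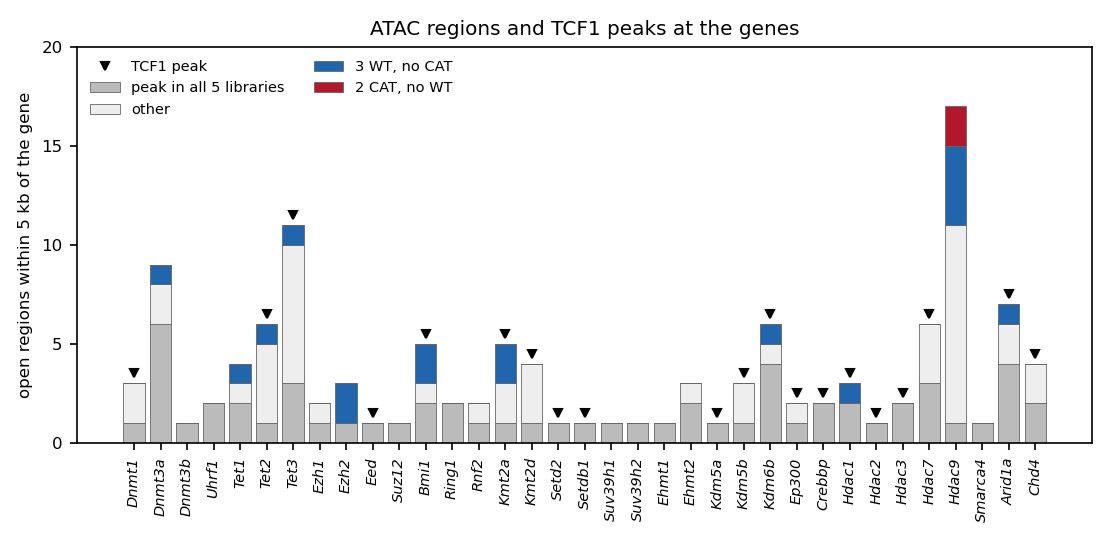
Joined ATAC regions in or within 5 kb of each member (grey, peak in all 5 libraries; blue, 3 WT and no CAT; red, 2 CAT and no WT; pale, any other mix), with a triangle over genes that had a TCF1 peak in WT cells. Hdac9 has the most regions, 17, and the only 2 red ones.

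TCF1, encoded by Tcf7, is the DNA-binding partner of β-catenin in T cells, and Tcf7 itself lay at 144.7 to 162.0 CPM in WT and at 62.3, 71.4 and 140.3 in CAT. The WT ChIP-seq list held 5876 peaks from 1 library, so there is no replicate check. A TCF1 peak lay in or within 5 kb of 20 members, or 57.1%, against 38.6% of tested genes, with the median spans of 42.4 and 21.7 kb given above; the part of length in this difference was not tested. Within 1 kb of a start site, a distance that does not depend on gene length and was chosen after the data were seen, 14 of 31 members, or 45.2%, had a peak, against 29.8% of tested genes. No test was made of either share. Arid1a had 4 peaks, of which that in the second printed window lay at chr4:133756813-133756954, and Kmt2d had 3. Of the members that fell, Bmi1, Kdm6b, Hdac2 and Arid1a had a peak and Tet1, Dnmt3b, Rnf2 and Hdac9 had none. Of those that rose, Dnmt1, Setdb1 and Hdac3 had a peak and Uhrf1, Ezh2, Suz12 and Ring1 had none.

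In promoter letters, TTTNNCGC, searched on both strands, occurred in 8 of 44 promoters of the 31 members with a window, or 18.2%, against 5.17% of 32851 promoters. The 32851 are all RefSeq windows, not only those of genes tested for expression. The 8 were both windows of Uhrf1 and 1 each of Ezh2, Dnmt1, Suz12, Suv39h1, Arid1a and Ep300, a mix of members that rose, that fell and that did not pass. CTTTGA, the core of TCF/LEF sites, occurred in 11.4% of the members' promoters and 16.0% of all, and CCAAT in 27.3% and 37.4%. The median number of CpG dinucleotides was 30 in the members' promoters and 7 in all, and the part of this difference in the count of TTTNNCGC was not tested. A match is a run of letters and was not tested as a binding site.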

How the data were processed

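RNA values came from a Cuffdiff table. Per the file headers, the authors deposited estimated counts of fragments per gene and FPKM, and a second table of p-values and q-values. Per the submitters' processing notes, Bowtie, HOMER and MACS2 were used with mm10, and the RNA aligner was not given in the sources used here. The deposited ATAC peak lists give −log10 p and q values, and TCF1 peaks are positions only.

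Names turned into dates (25) and 13 genes with failed estimates at 0 fragments were left out. Estimated counts (92.5% whole within 1e-06) were rounded and tested in R 4.3.3 with edgeR 4.0.16 (TMM, filterByExpr, glmQLFit, glmQLFTest, Benjamini-Hochberg), and the common coefficient of variation was 0.132. SE is the log2 change over the square root of F. DESeq2 1.42.0, limma 3.58.1 on log2(FPKM + 1), other scalings and filters, and left-out libraries were alternatives. The authors' estimate was marked failed for Smarca4 in CAT replicate 1 and for Cbx5 in WT and CAT replicates 2 and 3, and their counts were used. Counting is not stated to use strand, and Setdb1, Suv39h2, Kdm5a, Kdm5b and Hdac7 overlap another protein-coding gene in RefSeq.

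Replicate numbers 0 to 2 of the file were read as 1 to 3. All members are named. Of the other lists, up to 3 rises and 3 falls past the threshold with an FPKM of at least 1 are named, and the members and lists were chosen with earlier results of these data known. Sequences are RefSeq's (GRCm38.p6). RNA from strongly similar paralogues can be split between them by the authors' counting.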

Additional observations from a re-analysis of the deposited data

How the results depend on the processing

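Over 18 other settings no called member changed direction, 6 kept their call and 9 lost it in at least 1, and 6 of the 20 uncalled members gained one. Higher and lower genes numbered 3369 and 3097 in edgeR and 3341 and 3046 in DESeq2. They were 2099 and 1834 with limma on log2(FPKM + 1), 2093 and 1815 with a pseudocount of 0.1, 2077 and 1805 without a filter, and 1874 and 1603 on replicates 2 and 3 alone, and both fits on replicates 2 and 3 alone were chosen after the data were seen. Quantile scaling gave 1839 and 2203 and upper quartile factors 3127 and 3419, which turns the balance towards lower genes. WT replicate 2 as the only WT library gave 1954 and 1631. Members higher, 7 in edgeR, were 4 in each of the 3 limma fits on all libraries, 2 with quantile scaling, 2 with WT replicate 2 alone, 3 with edgeR and 2 with limma on replicates 2 and 3. Members lower, 8 in edgeR, were 5 with limma without a filter, 5 with WT replicate 2 alone and 5 with limma on replicates 2 and 3. Other chromatin genes higher, 27 in edgeR, were 12 with limma without a filter, 17 with quantile scaling, 13 with WT replicate 2 alone and 17 with limma on replicates 2 and 3, and those lower, 42 in edgeR, were 22 and 22 with limma at the 2 pseudocounts, 19 without a filter, and 25 in each of those other three. Leaving out 1 library gave 2688 to 3583 genes higher and 2417 to 3364 lower, 4 to 7 members higher (4 without WT replicate 2) and 7 to 11 lower, 19 to 26 other chromatin genes higher and 29 to 49 lower, and 26 to 27 members with a start site peak. The cause of these moves was not tested.

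Deviations of counts from the genotype mean correlated at 0.1, -0.047 and 0.099 between libraries of the same replicate number. Between different numbers they correlated at -0.173 to 0.116. These counts show no pairing by number, but replicate 1 of both genotypes shared a scaling of FPKM, given below. With the number as a replicate block 3349 genes were higher and 3035 lower, and 29 and 41 other chromatin genes. In that fit 7 members were higher and 9 lower, the ninth being Kmt2d (edgeR adjusted p = 0.0477). Hdac9 did not pass the filter of 1 setting and has no value there. Members with a start site peak in all 5 libraries, 26, were 2 at a −log10 q of at least 5. The pileup values deposited in the same lists followed peak width with a rank correlation of only 0.0381 to 0.0547. The q values were not compared with width. Members with a TCF1 peak, 20, were 11 with no extension, 23 at 20 kb and 14 of 31 within 1 kb of a start site. For low members such as Hdac9 in CAT, 23 fragments limit the precision.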

Other observations

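The deposited FPKM of replicate 1 was scaled by gene in another way than that of replicates 2 and 3, in both genotypes. FPKM per counted fragment, relative to WT replicate 2 over 9631 genes with at least 100 fragments in every library, had an SD on the log2 scale of 0.2739 in WT replicate 1 and 0.2288 in CAT replicate 1, against 0.0138 to 0.0282 in the other 3. Across genes, which are not independent replicates, the values of WT and CAT replicate 1 correlated at r = 0.9799. Among members, Ring1 was at 1.498 in WT and 1.342 in CAT replicate 1, Ehmt2 at 1.473 and 1.345, and Rnf2 at 0.783 and 0.821, while replicates 2 and 3 lay at 0.995 to 1.0 for these genes. Levels per length are therefore given above from replicates 2 and 3, and comparisons from counts. The cause was not tested.

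The summed level of all 35 members was 4031.9 to 4479.5 CPM in WT and 4108.6 to 4403.5 in CAT, so the ranges overlapped.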
